A study of Mus musculus with 6 samples.

Results

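Collagen genes were measured in whole adenomas of the mouse small intestine. They were chosen by gene symbol alone, as every gene named Col, a number, a and a number, and this gave 44 genes of the 48440 in the tables: 11 fibrillar collagens, 9 basement membrane collagens and 24 others, which comprise 6 type VI chains, 9 fibril-associated collagens, 4 transmembrane collagens and 5 short-chain or remaining collagens. The study compared adenomas of mice with and without genetic depletion of Paneth cells, the antimicrobial secretory cells at the base of the small intestinal crypt. The 3 ApcMin PCdel libraries (QC3, QC8 and QC10) carry Defa4-Cre, Rosa26 iDTA/WT and the ApcMin allele, a truncating mutation of the tumour suppressor Apc. The 3 ApcMin control libraries (QC4, QC5 and QC6) carry ApcMin, and the study's methods give its controls as Rosa26 iDTA/WT littermates without Cre, so that both groups hold the toxin cassette and the tumour allele and differ in the Cre. Both groups are labelled as adenoma polyp on a C57BL/6 background at an age above 42 days, with no further treatment. The Cre is an IRES cassette knocked into the Defa4 locus, so that diphtheria toxin A is made in cells that have expressed this defensin gene. The design directs it to Paneth cells, and whether these cells express collagen genes was not tested. Neither the labels nor the methods say whether each library came from a different mouse or how many adenomas it pooled, so p-values measure the spread between these libraries.

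Collagens are secreted proteins in which chains wind around each other into a rope-like helix. Fibrillar collagens, above all types I and III, assemble into the tensile fibrils of connective tissue and are made in the gut mainly by fibroblasts. Type IV collagen forms the sheet-like network of the basement membrane under epithelium and around vessels and muscle, and type VI forms beaded microfibrils between the basement membrane and the fibrils. An adenoma is an epithelial tumour, but it grows with a stroma of fibroblasts, vessels, muscle and immune cells, and collagen transcripts in whole adenoma RNA are used as a readout of that stroma.

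Several collagen genes lie near each other in the genome, and each was measured separately. Promoters are shown for the pairs and the single gene to which the results return. Each window runs from 250 bases before to 50 bases after a RefSeq transcription start (GRCm38.p6) and is written 5′ to 3′ on the strand of the gene. Col4a1 and Col4a2 point away from each other with start sites that overlap by 22 bases, and their windows share the 78 bases in capitals, which are reverse complements of each other.
Col4a1, chr8:11312777-11313076, minus strand: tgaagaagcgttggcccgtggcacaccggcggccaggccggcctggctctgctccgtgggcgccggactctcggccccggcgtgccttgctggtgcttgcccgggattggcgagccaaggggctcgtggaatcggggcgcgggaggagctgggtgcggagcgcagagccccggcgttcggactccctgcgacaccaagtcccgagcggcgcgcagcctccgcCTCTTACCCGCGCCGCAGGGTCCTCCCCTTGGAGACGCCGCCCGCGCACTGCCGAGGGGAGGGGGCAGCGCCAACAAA
Col4a2, chr8:11312555-11312854, plus strand: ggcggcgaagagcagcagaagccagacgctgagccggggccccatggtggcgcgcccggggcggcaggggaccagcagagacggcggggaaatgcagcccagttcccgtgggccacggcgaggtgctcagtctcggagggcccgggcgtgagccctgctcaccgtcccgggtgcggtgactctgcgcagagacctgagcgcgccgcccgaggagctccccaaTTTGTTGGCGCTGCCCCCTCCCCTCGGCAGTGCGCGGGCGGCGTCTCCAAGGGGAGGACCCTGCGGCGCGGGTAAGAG

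Col6a1 and Col6a2 also lie on 1 chromosome, 85.2 kb apart and on the same strand, with separate starts, and Col6a2 has 2 RefSeq starts. In these windows and in that of Col27a1, capitals mark matches to the GC box GGGCGG on either strand. The RefSeq start used for Col27a1 (chr4:63215412) lies inside the measured gene, which the study lists as beginning at 63214004. Its window therefore need not be the promoter of all transcripts measured.
Col6a1, chr10:76725995-76726294, minus strand: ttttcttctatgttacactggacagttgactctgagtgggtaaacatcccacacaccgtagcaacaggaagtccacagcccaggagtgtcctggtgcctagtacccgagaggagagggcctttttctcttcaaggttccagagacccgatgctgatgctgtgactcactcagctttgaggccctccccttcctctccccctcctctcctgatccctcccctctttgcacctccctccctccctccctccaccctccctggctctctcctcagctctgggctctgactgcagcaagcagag
Col6a2 upstream start, chr10:76623581-76623880, minus strand: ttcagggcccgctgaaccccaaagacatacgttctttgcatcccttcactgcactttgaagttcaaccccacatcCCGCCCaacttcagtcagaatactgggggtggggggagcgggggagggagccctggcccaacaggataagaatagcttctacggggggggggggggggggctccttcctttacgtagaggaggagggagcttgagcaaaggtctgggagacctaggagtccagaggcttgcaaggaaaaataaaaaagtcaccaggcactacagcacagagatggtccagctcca
Col6a2 downstream start, chr10:76623355-76623654, minus strand: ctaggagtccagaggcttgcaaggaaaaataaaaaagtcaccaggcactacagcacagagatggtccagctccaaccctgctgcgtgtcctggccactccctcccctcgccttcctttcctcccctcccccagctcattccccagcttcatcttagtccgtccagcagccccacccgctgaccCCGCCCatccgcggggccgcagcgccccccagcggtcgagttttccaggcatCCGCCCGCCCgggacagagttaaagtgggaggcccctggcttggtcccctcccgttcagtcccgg
Col27a1, chr4:63215162-63215461, plus strand: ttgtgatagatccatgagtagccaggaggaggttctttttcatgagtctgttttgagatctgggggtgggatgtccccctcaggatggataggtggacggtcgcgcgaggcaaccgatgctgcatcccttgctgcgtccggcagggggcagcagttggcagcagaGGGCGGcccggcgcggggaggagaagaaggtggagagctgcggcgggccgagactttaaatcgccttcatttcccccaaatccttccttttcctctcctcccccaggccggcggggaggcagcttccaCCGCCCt

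Promoter windows were at hand for 35 of the 44 collagen genes. The GC box GGGCGG was found in 13 of 19 windows of the collagen genes tested below, or 68.4%, against 35.7% of all 32851 windows. These 19 windows came from 17 of the 22 tested genes, with Col6a2 and another gene counted at more than 1 start. The only match of Col4a1 lies in the bases shared with Col4a2, so 1 site counts in both windows. The sequence CCAAT lay in 7 of the 19 (37.4% of all windows) and TATAAA in 3 of the 19 (13.6% of all windows), with either strand searched for each. The Col6a2 windows held 1 GC box at the upstream start and 3 at the downstream start, of which 2 overlap. The Col6a1 window held none of these 3 sequences. A match describes the letters of a window and is no evidence of binding.

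Values are FPKM, in which the fragments of a gene are divided by its length and by the depth of the library. The FPKM totals were unequal, from 549225 in QC8 (PCdel) to 604974 in QC6 (ApcMin), so levels compare only approximately between libraries. The libraries held 5.41 to 5.88 aligned gigabases by the coverage in the tables. The 10 most abundant genes took 14.3% of all FPKM in QC6 and 11.4% to 12.5% in the others. Of the 44 collagen genes, 37 were above 0 in every library, 4 in some, and Col2a1, Col19a1 and Col26a1 were listed at 0 in all 6. The 22 genes with a mean of at least 1 FPKM were tested: 8 fibrillar, 4 basement membrane and 10 other collagens. Their median level was 7.33 FPKM, against 10 FPKM over all 14240 genes tested. Col27a1, at a mean of 1.58 FPKM, was the lowest gene tested, and Col23a1, at 0.958 FPKM, the highest left out. Collagens made up 0.0390% to 0.0788% of all FPKM, and the 4 most abundant genes supplied 46.3% to 52.9% of this in each library. The Paneth cell genes Lyz1, Defa21 and Defa22 summed to 1022 to 1193 FPKM in the PCdel libraries and 1930 to 2915 FPKM in the ApcMin libraries, without overlap, in the direction of the labels.

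**Figure D1:**
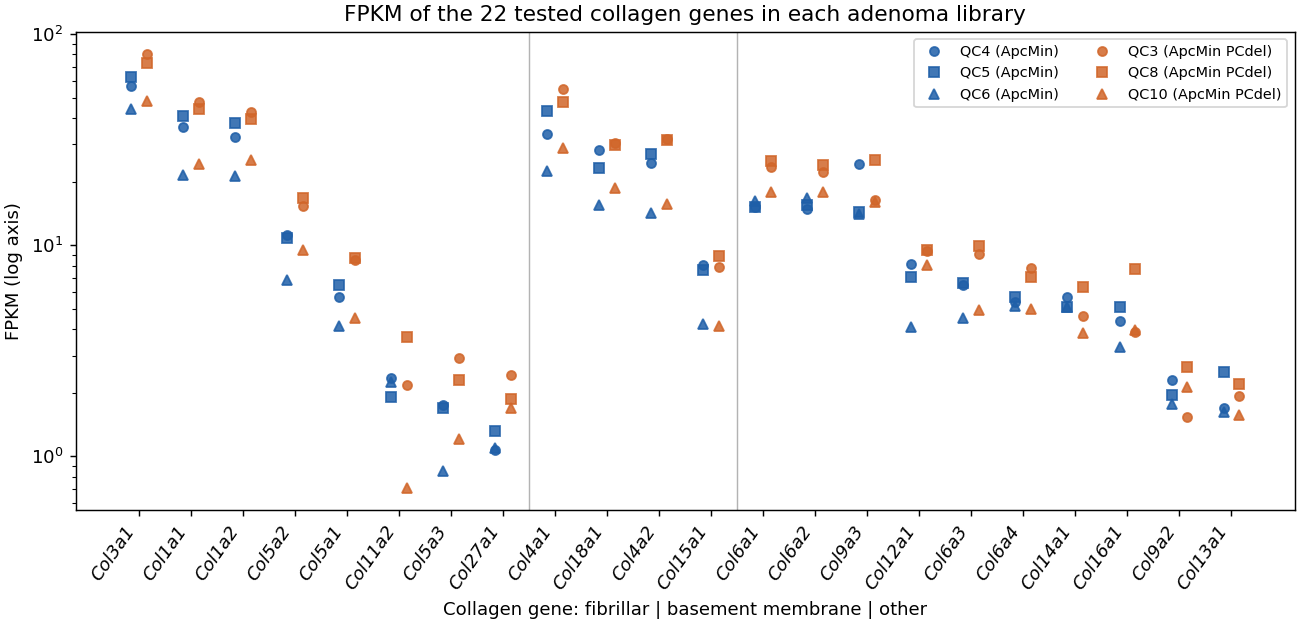
FPKM on a log axis of each of the 22 tested collagen genes in each library, with ApcMin and ApcMin PCdel libraries marked apart. Col3a1, Col1a1, Col4a1 and Col1a2 lie at the top of the range, and in most genes the points of the 2 genotypes are interleaved.

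No collagen gene was called different between the genotypes after correction across all genes. With limma on log2(FPKM + 1) and Benjamini-Hochberg adjustment over the 14240 genes, 0 of the 22 collagen genes passed an adjusted p of 0.05 (lowest adjusted p = 1.0), against 0.0140% of all genes. The Paneth cell genes Lyz1, Defa21 and Defa22 did not pass it either (limma adjusted p = 0.979, 0.309 and 0.309). Missing this threshold is therefore no evidence of equal levels. At an unadjusted p under 0.05, Col6a1, Col6a2 and Col27a1 were higher in PCdel adenomas and 0 were lower, that is 3 of 22 where 3.38% of all genes were called, 2.70% as higher and 0.681% as lower. The same 3 genes had every PCdel library above every ApcMin library, as did 6.00% of all genes tested, while 1.54% had every PCdel library below (7.54% in either direction). The PCdel mean was above the ApcMin mean in 19 of 22 collagen genes, against 63.1% of all genes. The median log2 difference was 0.23 over the collagens, with a range of -0.11 to 0.48, and 0.04 over all genes. Genes called at an unadjusted p under 0.05 were higher in PCdel in 79.8% of cases, and in 61.4% once each library was centred on its median and 58.9% after quantile normalization. With that centring 18 of 22 collagen genes had the higher PCdel mean (47.7% of all genes), the same 3 had an unadjusted p under 0.05 (1.95% called higher), and 2 had separate groups (3.93%), Col27a1 and Col12a1. In whole tissue, fewer cells of a type and less RNA per cell cannot be told apart.

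**Figure D2:**
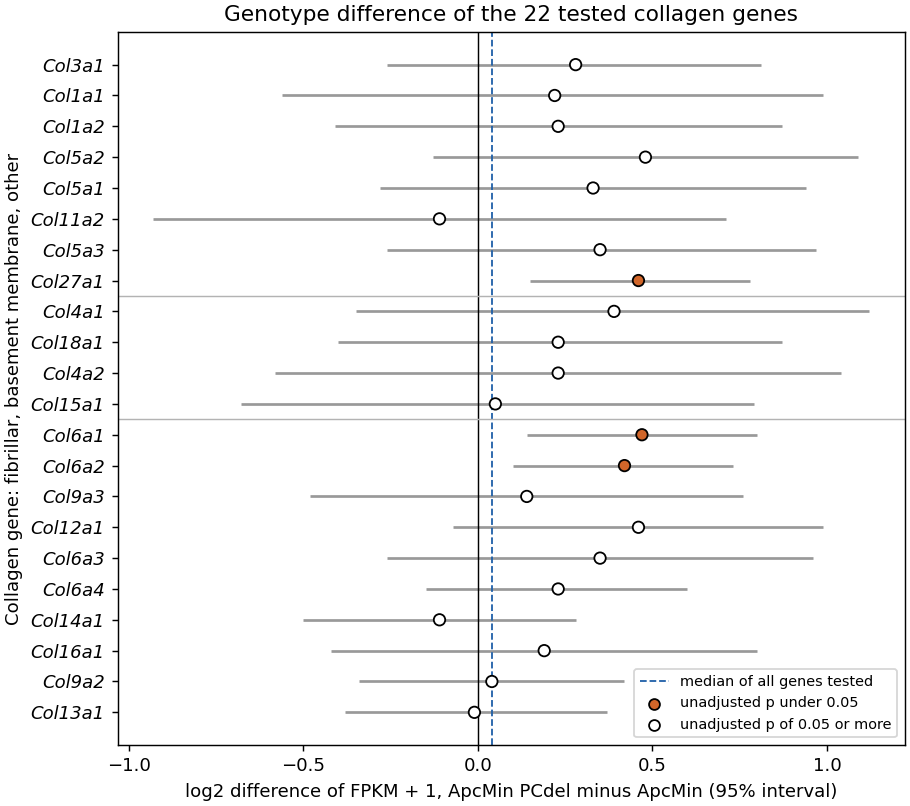
Difference in log2(FPKM + 1), ApcMin PCdel minus ApcMin, for the 22 tested collagen genes grouped by class, with 95% confidence intervals from limma (n = 3 against 3 libraries) and a dashed line at the median of all genes tested. The intervals of Col27a1, Col6a1 and Col6a2 lie above 0 and those of the other 19 genes cross it.

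Fibrillar collagens were the most abundant class. Col3a1, the type III chain of pliable tissues, led all collagens with 57.0, 62.7 and 44.1 FPKM in the ApcMin libraries QC4, QC5 and QC6 and 80.5, 73.0 and 48.2 FPKM in the PCdel libraries QC3, QC8 and QC10. Col1a1, the main chain of type I collagen, had 36.3, 40.7 and 21.6 FPKM in ApcMin and 47.6, 44.2 and 24.2 FPKM in PCdel, in the same order of libraries. Its partner Col1a2 had 32.6, 37.8 and 21.3 FPKM in ApcMin and 42.9, 39.5 and 25.4 FPKM in PCdel. In each of these genes QC3 and QC8 stood highest, while QC10 lay above QC6 alone among the ApcMin libraries, so that the groups overlapped. The log2 difference of Col3a1 was 0.28 ± 0.22 (SE, limma unadjusted p = 0.260), with group means of 67.2 ± 16.9 FPKM in PCdel and 54.6 ± 9.56 FPKM in ApcMin (SD, n = 3 each). Col1a1 and Col1a2 differed by 0.22 ± 0.33 and 0.23 ± 0.27 (SE), with 95% intervals of -0.56 to 0.99 and -0.41 to 0.87, which hold a fall as well as a rise. Col1a1 (chr11:94936224-94953042) and Col1a2 (chr6:4504814-4541544) lie on different chromosomes, and their ratio stayed between 0.954 and 1.12 in the 6 libraries. The ratio of Col3a1 to Col1a1 ran from 1.54 to 2.04.

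The minor fibrillar chains followed the same order of libraries with some exceptions. Col5a2, a chain of the type V collagen that nucleates type I fibrils, showed the largest fibrillar difference on this scale (Col27a1 was larger with a pseudocount of 0.1, at 0.72 against 0.52, and on TPM, at 0.60 against 0.55), with 11.2, 10.8 and 6.86 FPKM in ApcMin and 15.4, 16.8 and 9.46 FPKM in PCdel. QC10 lay below QC4 and QC5, and the difference of 0.48 ± 0.26 (SE) had a limma unadjusted p of 0.105. Col5a2 (chr1:45374321-45503282, minus strand) and Col3a1 (chr1:45311538-45349706, plus strand) are neighbours 24.6 kb apart. Its partner chains Col5a1 and Col5a3 differed by 0.33 and 0.35 on the same scale. Col11a2, a type XI chain best known from cartilage, had 2.35, 1.90 and 2.26 FPKM in ApcMin and 2.17, 3.67 and 0.710 FPKM in PCdel, so that the PCdel group held both its highest and its lowest library. Its difference of -0.11 ± 0.34 (SE) was the lowest of the fibrillar class.

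Col27a1 (chr4:63214004-63334991), a fibrillar collagen of cartilage and several epithelia, was the fibrillar gene whose groups did not overlap. It was low throughout, at 1.07, 1.32 and 1.10 FPKM in ApcMin and 2.42, 1.88 and 1.69 FPKM in PCdel. The lowest PCdel library lay above the highest ApcMin library, and the means were 1.996 ± 0.380 and 1.16 ± 0.136 FPKM (SD, n = 3 each). The log2 difference was 0.46 ± 0.13 (SE, limma unadjusted p = 0.0104, adjusted p = 1.0), and an exact permutation of the libraries (two-sided) had p = 0.1, its lowest possible value with 3 against 3. By unadjusted p it ranked 112 among all genes tested. Across the fibrillar class 7 of 8 tested genes had the higher mean in PCdel adenomas, with a median difference of 0.30.

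Basement membrane collagens varied between libraries as much as the fibrillar class. Col4a1, which with Col4a2 forms the network common to all basement membranes, had 33.6, 43.4 and 22.5 FPKM in ApcMin and 54.7, 47.5 and 28.8 FPKM in PCdel. Col4a2 had 24.5, 27.0 and 14.3 FPKM in ApcMin and 32.0, 31.3 and 15.6 FPKM in PCdel. Both genes were highest in QC3 and QC8 and lowest in QC6 and QC10, and in both QC10 lay below QC4 and QC5. The log2 differences were 0.39 ± 0.31 and 0.23 ± 0.34 (SE), with limma unadjusted p of 0.252 and 0.516. These genes share the promoter sequence shown above, and the ratio of Col4a1 to Col4a2 ran from 1.37 to 1.85. Col18a1 (chr10:77052178-77166548), the source of the endostatin fragment, had 28.2, 23.2 and 15.5 FPKM in ApcMin and 30.3, 29.7 and 18.7 FPKM in PCdel, a difference of 0.23 ± 0.27 (SE) with overlapping groups. Col15a1, a related collagen of vascular and muscle basement membranes, had 8.03, 7.60 and 4.26 FPKM in ApcMin and 7.91, 8.92 and 4.16 FPKM in PCdel. QC6 and QC10 were nearly equal for this gene, and its difference was the smallest of the class at 0.05 ± 0.31 (SE). All 4 tested genes of the class had the higher mean in PCdel adenomas, with a median of 0.23. The other type IV chains were low in every library, from a mean of 0.0325 FPKM for Col4a4 to 0.602 FPKM for Col4a5, and were not tested. Col7a1, the anchoring fibril collagen, had a mean of 0.584 FPKM and was not tested.

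The main type VI chains Col6a1 and Col6a2 had separate genotypes, with a small margin in QC10. Col6a1 had 15.2, 15.2 and 16.2 FPKM in ApcMin and 23.4, 24.9 and 17.9 FPKM in PCdel. Col6a2 had 14.8, 15.5 and 16.8 FPKM in ApcMin and 22.3, 24.1 and 17.9 FPKM in PCdel. The ApcMin libraries were nearly equal for these genes, QC6 was here the highest of them rather than the lowest, and QC10 lay just above it. The means were 22.1 ± 3.70 against 15.5 ± 0.597 FPKM for Col6a1 and 21.4 ± 3.18 against 15.7 ± 1.003 FPKM for Col6a2 (SD, n = 3 each, PCdel first). The log2 differences were 0.47 ± 0.14 for Col6a1 and 0.42 ± 0.13 for Col6a2 (SE), with limma unadjusted p of 0.0127 and 0.0167, adjusted p of 1.0 for both, and ranks of 135 and 163 among all genes. The exact permutation test gave its minimum of p = 0.1 for each. Without QC3, QC4 or QC8 the unadjusted p of Col6a2 rose above 0.05, up to 0.0603. Col6a1 (chr10:76708792-76726168) and Col6a2 (chr10:76595762-76623630) encode chains of 1 protein, and their ratio stayed between 0.969 and 1.05, so that they are not independent observations.

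Col6a3, the long chain that joins Col6a1 and Col6a2 in the type VI molecule, was less abundant, at 0.277 to 0.438 of the Col6a1 level. It had 6.49, 6.64 and 4.54 FPKM in ApcMin and 9.07, 9.93 and 4.96 FPKM in PCdel, a difference of 0.35 ± 0.26 (SE). Col6a4, a chain related to Col6a3, had 5.39, 5.69 and 5.17 FPKM in ApcMin and 7.78, 7.05 and 4.99 FPKM in PCdel, a difference of 0.23 ± 0.16 (SE). In both chains QC6 and QC10 were the lowest libraries of their groups, as in most fibrillar and basement membrane genes, and the groups overlapped. Summed over the type VI chains, the libraries held 42.1, 43.2 and 43.6 FPKM in ApcMin and 63.2, 67.04 and 47.1 FPKM in PCdel, or 43.0 ± 0.788 against 59.1 ± 10.6 FPKM (SD, n = 3 each). The 3 ApcMin libraries lay close together and all PCdel libraries lay above them, QC10 by the smallest margin. Most of this sum was Col6a1 and Col6a2, so it repeats their separation and is no further observation. With median centring neither of these 2 genes had separate groups. All 4 tested type VI chains had the higher mean in PCdel adenomas, with a median difference of 0.38.

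Fibril-associated collagens, which coat fibrils and link them to their surroundings, varied in the order of their libraries from gene to gene. Col12a1, found where tissues bear tension, had 8.18, 7.07 and 4.12 FPKM in ApcMin and 9.37, 9.52 and 8.04 FPKM in PCdel, and only QC10 fell below an ApcMin library. Its difference of 0.46 ± 0.22 (SE) had a limma unadjusted p of 0.0794. Col14a1, its close relative, had 5.70, 5.12 and 5.12 FPKM in ApcMin and 4.63, 6.32 and 3.84 FPKM in PCdel, with the highest and the lowest library both in PCdel and a difference of -0.11 ± 0.16 (SE). Col9a3, a chain of the type IX collagen of cartilage, was the most abundant member of its class, at 24.1, 14.4 and 14.1 FPKM in ApcMin and 16.4, 25.4 and 16.1 FPKM in PCdel. One library of each group, QC4 and QC8, stood above the rest, and the difference was 0.14 ± 0.26 (SE). The partner chains did not share this level: Col9a2 was at 0.0944 to 0.135 of Col9a3, and Col9a1 had a mean of 0.116 FPKM. The exons of Col9a3 overlap those of the antisense gene Tcfl5 over 6.07% of their length, and the sources do not say whether counting used strand. Of the class, 4 of 5 tested genes had the higher mean in PCdel adenomas, with a median of 0.14.

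Among the transmembrane collagens, Col13a1, a cell-matrix adhesion protein, was the gene tested, with 1.69, 2.498 and 1.62 FPKM in ApcMin and 1.92, 2.21 and 1.58 FPKM in PCdel and a difference of -0.01 ± 0.16 (SE). Its groups covered nearly the same range. Of the 22 collagen genes left untested, 13 had a mean under 0.1 FPKM and 9 a mean from 0.116 to 0.958 FPKM. Among these 9, chosen here after its values were seen, Col4a5 had 0.474, 0.477 and 0.544 FPKM in ApcMin and 0.831, 0.676 and 0.612 FPKM in PCdel, and its groups did not overlap. When all genes were tested without the limit on level, 31 of 41 collagen genes had the higher PCdel mean (60.0% of all 27208 genes), and 5 were higher at an unadjusted p under 0.05 (2.66%), Col4a3 and Col4a5 besides the 3 above. Without that limit the same 5 had separate groups with PCdel higher (5.30%), and Col20a1 had them with PCdel lower (1.83%).

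**Figure D3:**
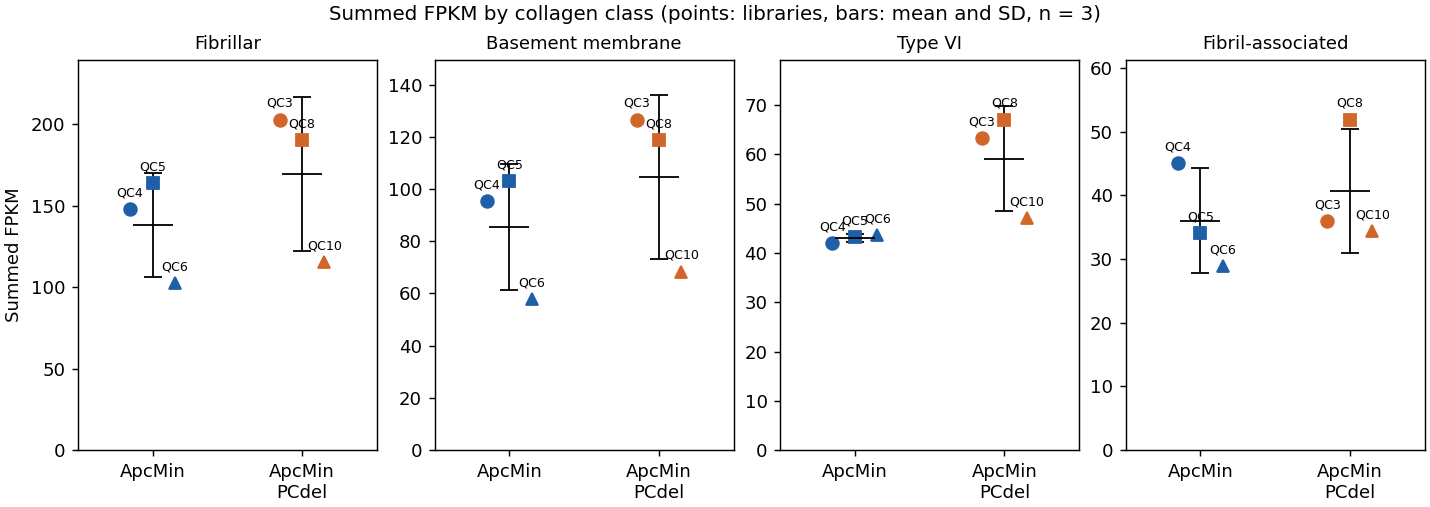
Summed FPKM of fibrillar, basement membrane, type VI and fibril-associated collagens in each library (points), with the mean and SD of each genotype (n = 3 each). The genotypes overlap in every class but type VI, whose sum is mostly Col6a1 and Col6a2.

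Summed levels per class were 148, 164 and 103 FPKM in ApcMin and 203, 190.3 and 116 FPKM in PCdel for the fibrillar genes, and 95.5, 103 and 57.8 FPKM in ApcMin and 127, 119 and 68.4 FPKM in PCdel for the basement membrane genes. In both classes QC10 lay above QC6 alone among the ApcMin libraries. The ratio of genotype means was 1.23 for the fibrillar sum (169.6 ± 47.2 against 138 ± 31.9 FPKM, SD) and 1.23 for the basement membrane sum (105 ± 31.6 against 85.4 ± 24.2 FPKM, SD), against 1.38 for type VI and 1.13 for the fibril-associated genes. The fibrillar to basement membrane ratio was 1.55, 1.59 and 1.78 in ApcMin and 1.60, 1.60 and 1.69 in PCdel, so that the genotypes overlapped and the highest values belonged to QC6 and QC10. The type VI to fibrillar ratio was likewise highest in these libraries, at 0.425 in QC6 and 0.407 in QC10 against 0.264 to 0.352 in the other 4.

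**Figure D4:**
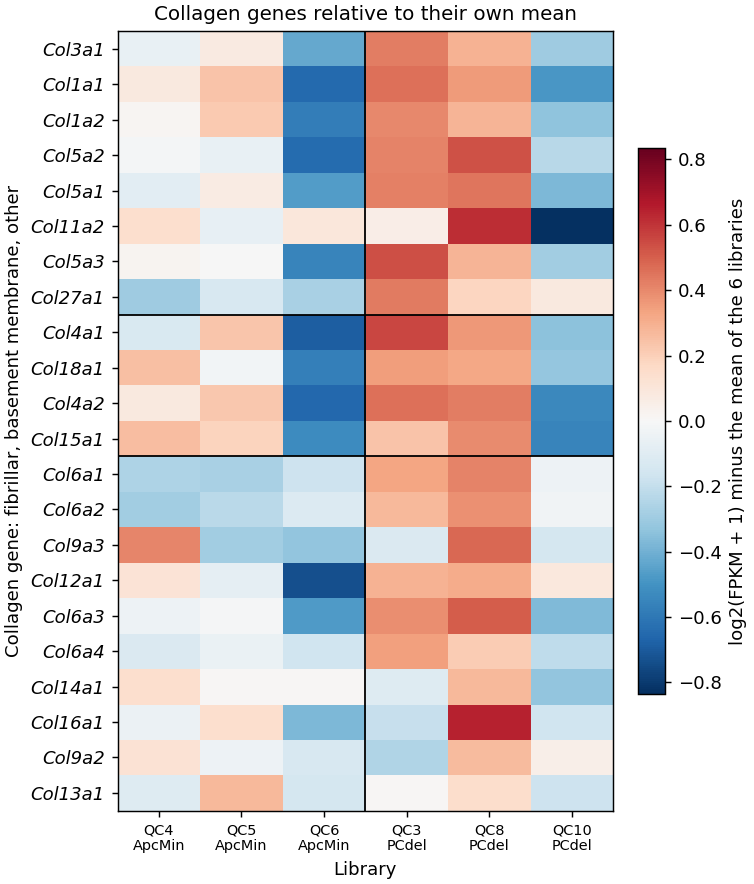
log2(FPKM + 1) of each tested collagen gene minus its own mean over the 6 libraries, in colour from blue (below the mean) to red (above it). QC3 and QC8 are red and QC6 and QC10 blue for most genes, while Col27a1 is blue in all ApcMin and red in all PCdel libraries, and Col6a1 and Col6a2 are blue in all ApcMin libraries and just below their mean in QC10.

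The collagens differed more between libraries of 1 genotype than most genes did. The median ratio of the highest to the lowest library within ApcMin was 1.56 for the 22 collagen genes and 1.31 for all genes tested, and within PCdel it was 1.70 and 1.24. The lowest ApcMin library was QC6 in 18 of 22 collagen genes, against 62.0% of all genes, and the lowest PCdel library was QC10 in 20 of 22, against 41.4%. Both held in 16 of 22 (27.0% of all genes). The highest of all 6 libraries was QC3 or QC8 in 21 of 22 collagen genes, where 37.6% of all genes had it there. These libraries were singled out after the values were seen. QC6 and QC10 also stood apart over all genes. Their limma array weights, which are lower for libraries that vary more, were 0.237 and 0.634, against 1.17 to 3.09 in the others. The genes that did not have both QC6 and QC10 lowest in their groups were Col11a2, Col27a1, Col16a1, Col9a2, Col6a1 and Col6a2, a list that holds all 3 genes with separate genotypes.

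**Figure D5:**
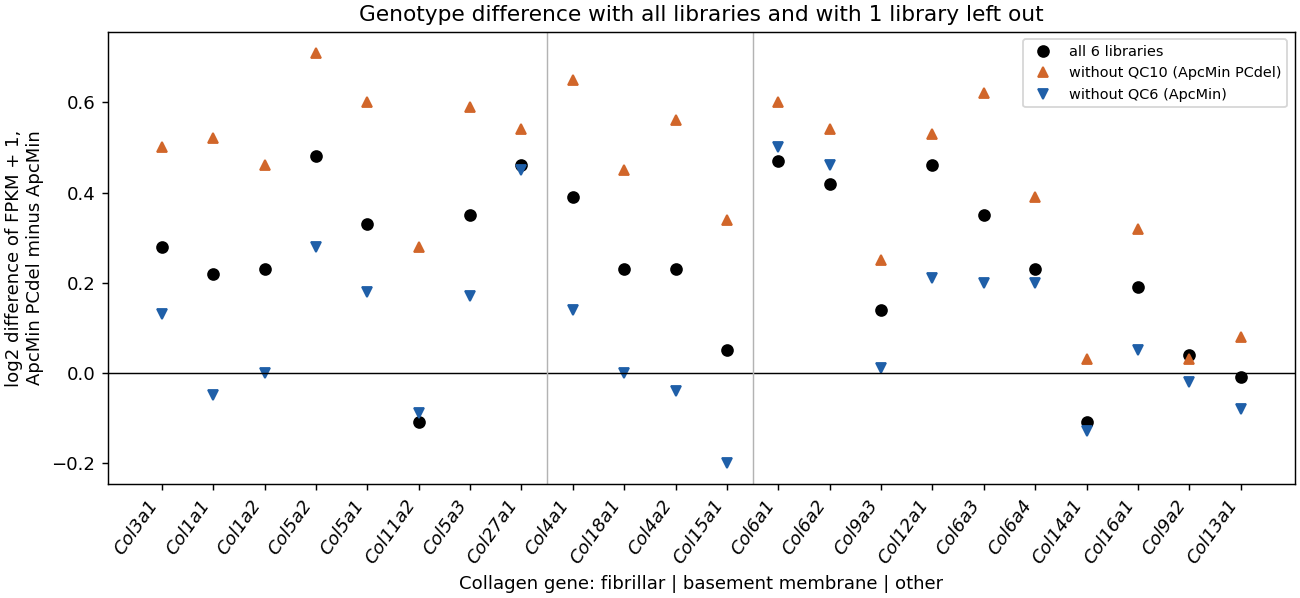
Difference in log2(FPKM + 1), ApcMin PCdel minus ApcMin, of each tested collagen gene with all 6 libraries (black circles), without QC10 (orange triangles) and without QC6 (blue triangles). Without QC10 every gene lies above 0, with a median of 0.51, and without QC6 the median is 0.09, while Col27a1, Col6a1 and Col6a2 stay well above 0 in each. Both libraries were picked after the values were seen, as the lowest of their groups in most genes.

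How many collagen genes separated by genotype depended on QC10. It was the lowest PCdel library in 20 of 22 collagen genes. Leaving it out had to raise their PCdel means, so the counts without it are no separate support. Without it, all 22 genes had the higher mean in PCdel adenomas (63.1% of all genes), 9 had an unadjusted p under 0.05 (3.43% of all genes were called higher), 15 had separate groups (15.7%), and the median difference was 0.51. The 9 were Col3a1, Col5a1, Col5a2, Col5a3, Col6a3 and Col6a4 besides Col27a1, Col6a1 and Col6a2, and none passed the adjusted threshold. Without QC6, 14 of 22 had the higher PCdel mean (49.3% of all genes), the same 3 genes as with all libraries had an unadjusted p under 0.05 (3.43%) and separate groups (11.3%), and the median was 0.09. The basement membrane median without QC6 was -0.02. Without QC4, 23 collagen genes were tested and 19 had the higher PCdel mean (67.0% of all genes), 3 had an unadjusted p under 0.05 (2.98%), namely Col12a1, Col27a1 and Col6a1, and 5 had separate groups (13.4%), Col12a1 and Col9a3 besides Col27a1, Col6a1 and Col6a2. Without QC8, 15 of 22 had the higher PCdel mean (61.4% of all genes), Col27a1 and Col6a1 had an unadjusted p under 0.05 (1.74% called higher), and Col27a1, Col6a1 and Col6a2 had separate groups with PCdel higher (9.30%) and Col14a1 with PCdel lower (3.37%). Leaving out QC3 instead, 18 of 22 had the higher PCdel mean (61.2% of all genes), and leaving out QC5, 20 of 22 (68.1%). In both fits Col27a1, Col6a1 and Col6a2 had separate groups (15.7% and 14.0% of all genes in either direction).

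Markers of collagen-producing cells also differed between libraries. All 8 fibroblast markers were above 0 in every library, and their sum was 147, 162 and 120 FPKM in ApcMin and 234, 224 and 159 FPKM in PCdel, so that QC6 and QC10 were the lowest libraries of their groups. Most of this sum was Dcn, which encodes the fibril-binding proteoglycan decorin, at 103, 110.5 and 81.9 FPKM in ApcMin and 172.5, 163 and 116 FPKM in PCdel. The markers did not share 1 order, and Clec3b and Dpt were highest among the ApcMin libraries in QC6. Of the 7 tested, 6 had the higher PCdel mean, with a median difference of 0.30 and a range from -0.03 for Cd34 to 0.62 for Pdgfra. Pdgfra, a growth factor receptor of fibroblasts, and Dcn, with a difference of 0.60, were the 2 of 7 that were called higher without adjustment (2.70% of all genes) and that had separate groups (6.00%). Their limma unadjusted p were 0.00571 and 0.0181 and their adjusted p 1.0. The 8 smooth muscle and myofibroblast markers summed to 224, 363 and 340.1 FPKM in ApcMin and 364.5, 466 and 325 FPKM in PCdel, with QC4 rather than QC6 lowest in ApcMin, the 6 endothelial markers to 27.1 to 42.5 and 33.5 to 54.4 FPKM, and the 5 pericyte markers to 32.3 to 45.6 and 33.7 to 51.8 FPKM, all above 0 throughout and all with overlapping sums. The pericyte marker Kcnj8 also had separate groups, at a difference of 0.33 (limma unadjusted p = 0.0391, adjusted p = 1.0). It was the 1 of 4 tested pericyte markers called higher (2.70% of all genes) and the 1 with separate groups (6.00%). Enteric glia markers summed to 0.874 to 2.33 FPKM over all libraries and mesothelial markers to 2.38 to 6.48 FPKM, with Wt1 and Lrrn4 at 0 in some. Epithelial markers summed to 4560 FPKM in QC6 and 5240 to 6579 FPKM in the others, and the 5 leukocyte markers to 26.8 to 39.5 FPKM in ApcMin and 34.4 to 38.1 FPKM in PCdel. The part of these cell types in the collagen levels was not tested.

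Genes that act on collagen during its assembly or outside the cell mostly had the higher mean in PCdel adenomas, as did 63.1% of all genes. Of 6 lists with 72 genes tested, 0 genes passed an adjusted p of 0.05 and 2 had an unadjusted p under 0.05, both higher in PCdel adenomas, against 2.70% of all genes. Among synthesis and crosslinking enzymes, 19 of 22 had the higher PCdel mean, with a median difference of 0.14. P4hb, a subunit of prolyl hydroxylase and the most abundant, differed by -0.11, Plod2, a lysyl hydroxylase, by 0.45 and Pcolce2, an enhancer of procollagen cleavage, by -0.37. Among small leucine-rich proteoglycans, which bind fibrils, 7 of 8 had the higher PCdel mean (median 0.22). Dcn, described above, had the largest difference and Chad the lowest at -0.08.

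Laminins and other basement membrane partners had the higher PCdel mean in 11 of 13 genes (median 0.12), from 0.51 for the laminin chain Lamb1 to -0.24 for Agrn. Proteases that cut collagen and their inhibitors had it in 11 of 11 (median 0.28). Mmp13, a collagenase that cleaves fibrillar collagen, had 10.1, 7.94 and 10.8 FPKM in ApcMin and 30.5, 26.9 and 13.3 FPKM in PCdel. All PCdel libraries lay above the ApcMin libraries, again with QC10 nearest to them, and the difference was 1.14 ± 0.30 (SE, limma unadjusted p = 0.00768, adjusted p = 1.0). Mmp14, which is anchored in the membrane and the most abundant of the list, differed by 0.26 and Mmp15 by 0.05. Collagen receptors had the higher PCdel mean in 6 of 6 (median 0.14), with Itgb1, the integrin beta chain and the most abundant, at 0.12 and the leukocyte receptor Lair1 at 0.32. Other fibrous matrix genes had it in 11 of 12 (median 0.28), with the collagen-binding protein Sparc at 0.23, Fbln2 at 0.41 and Fbln1 at -0.33. QC10 was singled out after the values were seen. Leaving it out had to raise the PCdel mean of each gene for which it was the lowest PCdel library. Without QC10, 21 of 72 genes of these lists had an unadjusted p under 0.05 (4.29% of all genes), and none passed the adjusted threshold. That count is no separate support.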

How the data were processed

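RNA of small intestinal adenomas was sequenced by the study on a HiSeq2500 from TruSeq RNA libraries. The study's methods name CLC Genomics Workbench for alignment and MatLab for normalization, but the program, annotation and strand setting behind the gene tables are not given in the sources used here. The deposited tables list, per gene and library, coverage as mean read depth, FPKM and TPM as made by the authors. Coordinates matched GRCm38, with all 44 collagen genes found in GENCODE M21. FPKM were summed per gene identifier. Genes with a mean of at least 1 FPKM were tested on log2(FPKM + 1) with limma 3.58.1 (trended eBayes, R 4.3.3), ApcMin PCdel minus ApcMin, with Benjamini-Hochberg adjustment over 14240 genes and a threshold of 0.05. These fold changes understate those of low genes. Single genes were also compared by exact two-sided permutation of the libraries (SciPy 1.17.1). Read counts are not part of the tables, which give mean read depth instead, so no counting interval is given. The fit was tested on simulated data. Genes were named by rule. In each collagen class these were the 3 most abundant tested genes, those with an unadjusted p under 0.05 and the extremes of the difference, given per library. In each pathway list they were the most abundant gene, the extremes and genes with an unadjusted p under 0.05, of which the last are given per library and the others by log2 difference. The rule names 1 further gene, which is not reported here. The members and all lists were chosen with earlier results of these data known. Alternatives were a pseudocount of 0.1, no limit on level, a minimum mean of 5 FPKM, TPM, quantile normalization, median centring, eBayes without a trend, array weights, a Y-linked covariate and each library left out.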

Additional observations from a re-analysis of the deposited data

How the results depend on the processing

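Over 15 alternatives, 0 collagen genes passed the adjusted threshold, and 12 of the 22 tested genes kept the direction of their difference in each alternative in which they were fitted. At an unadjusted p under 0.05, 5 of 41 collagen genes were called without the limit on level (3.59% of all genes), and 2 to 9 with a library left out (2.49% to 5.78%). Groups did not overlap for 6 of 41 genes without the limit (7.14%) and for 3 to 15 with a library left out (12.7% to 23.7%). The highest collagen counts were those without QC10 (4.29% called and 20.3% separate among all genes). With median centring, which lowered the share of all genes with the higher PCdel mean from 63.1% to 47.7%, 18 of 22 collagen genes had the higher PCdel mean. On TPM that share rose to 75.9% of all genes, with 24 of 27 collagen genes. Some log2 differences changed sign. With array weights Col11a2 was at 0.09, Col15a1 at -0.03 and Col9a2 at -0.00. With quantile normalization Col15a1 was at -0.01 and Col9a2 at -0.04, with median centring Col9a2 was at -0.01, and on TPM Col13a1 was at 0.04. With a library left out, Col11a2 ran from -0.44 to 0.28, Col13a1 from -0.08 to 0.12 (0.08 without QC10), Col14a1 from -0.27 to 0.03, Col15a1 from -0.20 to 0.34, Col16a1 from -0.08 to 0.34, Col1a1 from -0.05 to 0.52, Col1a2 from -0.00 to 0.46, Col4a2 from -0.04 to 0.56, Col9a2 from -0.08 to 0.18 and Col9a3 from -0.07 to 0.38. The cause was not tested. In the 6 pathway lists, at an unadjusted p under 0.05, 4 of 97 genes were called without the limit on level (3.59% of all genes), 4 of 72 with median centring (3.17%), 11 of 80 on TPM (4.30%), 14 of 72 with array weights (8.92%) and 1 to 21 with a library left out (2.49% to 5.78%). Without a library, a group of 2 shares the spread of the other libraries. No paired analysis was possible because the library numbers are not shared between the groups. The tables hold mean read depth but no read counts, so the number of reads behind low genes such as Col27a1 is not given.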
